A study of Mus musculus with 12 samples.

Results

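The genes described here are 31 interferon-gamma-induced genes of the mouse, chosen by gene symbol from the 22294 genes of an RNA-seq table. They are 9 guanylate-binding protein (GBP) genes, 7 immunity-related GTPase (IRG) genes, 3 ligands of the chemokine receptor CXCR3, 5 regulators and binding proteins, and 7 enzymes and effectors. The list of symbols was drawn up with earlier results of these data known, and all 31 were found. Shares of members set beside those of all genes are therefore descriptions. RNA came from endometrial cells of mice that had been enriched for F4/80, a macrophage surface protein encoded by Adgre1, on magnetic beads. There were 4 groups with 3 libraries each. The Sham group was operated on without the model. The IUA group stands for intrauterine adhesion, scarring that joins the uterine walls, and the table names its columns Matrigel, an extracellular matrix gel. The control MSC and primed MSC groups both had the same adhesion model and were given mesenchymal stromal cells of human umbilical cord (hUC-MSCs in the labels), unprimed in the former and primed with inflammatory cytokines in the latter. The strain, the age of the mice, the time of sampling, whether animals were pooled and whether other groups received Matrigel are not given in the sources used here.

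Interferon-gamma binds a receptor made of Ifngr1 and Ifngr2, which activates the kinases Jak1 and Jak2. The signal reaches genes through a DNA motif called GAS, and interferon regulatory factors bind a motif called ISRE. In macrophages the cytokine is known for inducing GBP and IRG GTPases, which gather on the vacuoles of intracellular pathogens, and the chemokines Cxcl9 and Cxcl10, which attract CXCR3-bearing T and NK cells. Many of these genes also respond to type I interferons.

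The genes sit in clusters. In mm10, the build that the submitters' processing notes name, 5 GBP genes lie on chromosome 3 between 142493978 and 142638008, and the other 4 lie on chromosome 5. The IRG genes Irgm1, Tgtp1, Tgtp2, Ifi47, Igtp and Irgm2 lie on chromosome 11. Because cluster members arose by duplication, some share sequence. Of the 50-base stretches in the longest Tgtp1 transcript, 91.4% also occur in another gene, and the share is 90.6% for Tgtp2, 59.7% for Gbp6, 18.2% for Gbp8 and 16% for Serpina3g. Values of Tgtp1 and Tgtp2 apart, and of Gbp6, are therefore uncertain. The gene models of Igtp and Irgm2 overlap on the same strand, those of Gbp4, Gbp8 and Gbp9 begin at nearly the same place, and those of Parp9 and Dtx3l overlap on opposite strands.

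Promoter windows of 300 bases, 250 before and 50 after the RefSeq start in GRCm38.p6, were at hand for 22 members in 25 windows. The ISRE core, GAAA followed by any 2 bases and GAAA again, searched on both strands, was present in 12 of the 25 windows (48.0%), against 3.44% of all 32851 windows. The GAS motif TTCNNNGAA was present in 8 (32.0%), against 8.30% of all windows. Both motifs stood in 1 window for 6 members, Gbp5, Gbp7, Tgtp1, Tgtp2, Igtp and Irgm2 (24.0% against 0.454%). The stretches below are the last 150 bases before the RefSeq start, 5′ to 3′ on the gene's strand, and none of their bases lies in an annotated GENCODE exon. Capitals mark GAS and ISRE matches. The first 3 are IRG genes with the same layout, a GAS and then an ISRE with 2 bases between them, which Tgtp1 shares. Gbp7 carries 2 GAS matches and an ISRE on the opposite strand, Gbp2b an ISRE alone on the opposite strand, and Serpina3g a GAS alone. Cxcl9 has neither in this stretch. The last 3 of these genes are shown because the largest differences described further on were theirs. A match is a run of letters and not a measured binding site.
Igtp, chr11:58199406-58199555, plus strand: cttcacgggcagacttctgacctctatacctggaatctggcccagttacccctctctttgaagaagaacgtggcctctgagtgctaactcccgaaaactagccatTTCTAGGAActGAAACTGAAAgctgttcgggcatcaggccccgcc
Irgm2, chr11:58214827-58214976, plus strand: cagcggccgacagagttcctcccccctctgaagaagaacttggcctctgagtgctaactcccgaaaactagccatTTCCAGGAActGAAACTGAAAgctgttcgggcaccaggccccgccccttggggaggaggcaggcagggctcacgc
Tgtp2, chr11:49064213-49064362, minus strand: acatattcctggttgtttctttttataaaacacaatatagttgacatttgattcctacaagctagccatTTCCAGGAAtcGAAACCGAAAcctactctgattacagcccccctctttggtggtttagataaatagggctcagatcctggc
Gbp7, chr3:142530186-142530335, plus strand: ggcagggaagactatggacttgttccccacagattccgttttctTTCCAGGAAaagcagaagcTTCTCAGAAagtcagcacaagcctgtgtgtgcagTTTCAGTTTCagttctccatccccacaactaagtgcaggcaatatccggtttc
Gbp2b, chr3:142594697-142594846, plus strand: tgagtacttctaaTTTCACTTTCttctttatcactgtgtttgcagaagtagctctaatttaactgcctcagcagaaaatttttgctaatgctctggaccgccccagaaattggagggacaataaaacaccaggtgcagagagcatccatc
Serpina3g, chr12:104235997-104236146, plus strand: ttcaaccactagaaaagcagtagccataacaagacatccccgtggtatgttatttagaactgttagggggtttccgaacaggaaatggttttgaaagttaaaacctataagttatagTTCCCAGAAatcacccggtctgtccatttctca
Cxcl9, chr5:92328080-92328229, minus strand: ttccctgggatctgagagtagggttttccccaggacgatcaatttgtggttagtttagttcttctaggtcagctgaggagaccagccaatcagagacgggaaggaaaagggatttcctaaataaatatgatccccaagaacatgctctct

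Levels are FPKM, a fragment count scaled to transcript length and to the library's mapped fragments, as the authors computed it. The read depth behind them is unknown. Together the 31 genes held between 0.142% and 0.334% of the summed FPKM of a library. Differences were tested with limma on log2(FPKM + 1) over all 12 libraries, for the 11604 genes with at least 1 FPKM in at least 3 libraries, and a gene is said to have risen or fallen where the adjusted p was under 0.05. A log2 change on this scale understates the change of low genes. Of the members, 30 were tested. Cxcl11, annotated by GENCODE as a polymorphic pseudogene, stayed at or under 0.23 FPKM in each library and was not tested. Across the 4 groups, 21 of the 30 differed by limma's F test, against 67% of all tested genes.

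All 15 macrophage markers examined were above 1 FPKM in some library. Adgre1, the gene of the sort marker, separated Sham, IUA and the treated groups, while the treated groups overlapped: it was at 256.14, 207.20 and 204.74 FPKM in Sham, 475.56, 401.22 and 424.29 in IUA, 836.65, 1038.88 and 944.10 in control MSC, and 1161.46, 1381.86 and 982.99 in primed MSC. It rose against IUA in both treated groups, by 1.11 ± 0.14 in control MSC and 1.43 ± 0.14 in primed MSC (adjusted p = 0.00942 and 2.70e-04 by limma), and did not pass between the treated groups (0.31 ± 0.14, adjusted p = 0.380). Summed macrophage markers came to between 13630 and 16540 FPKM in Sham and between 37430 and 42030 in the other groups. Summed epithelial markers came to between 8153 and 14220 FPKM in Sham and between 1581 and 5436 elsewhere, so the Sham libraries held much epithelial RNA. In such bulk samples, fewer cells of a type and less RNA per cell cannot be told apart. IUA replicate 3 stood apart in its relation of level to gene GC content (Spearman's rho of -0.483 across genes, against -0.178 to 0.216 in the other 11 libraries).

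**Figure D1:**
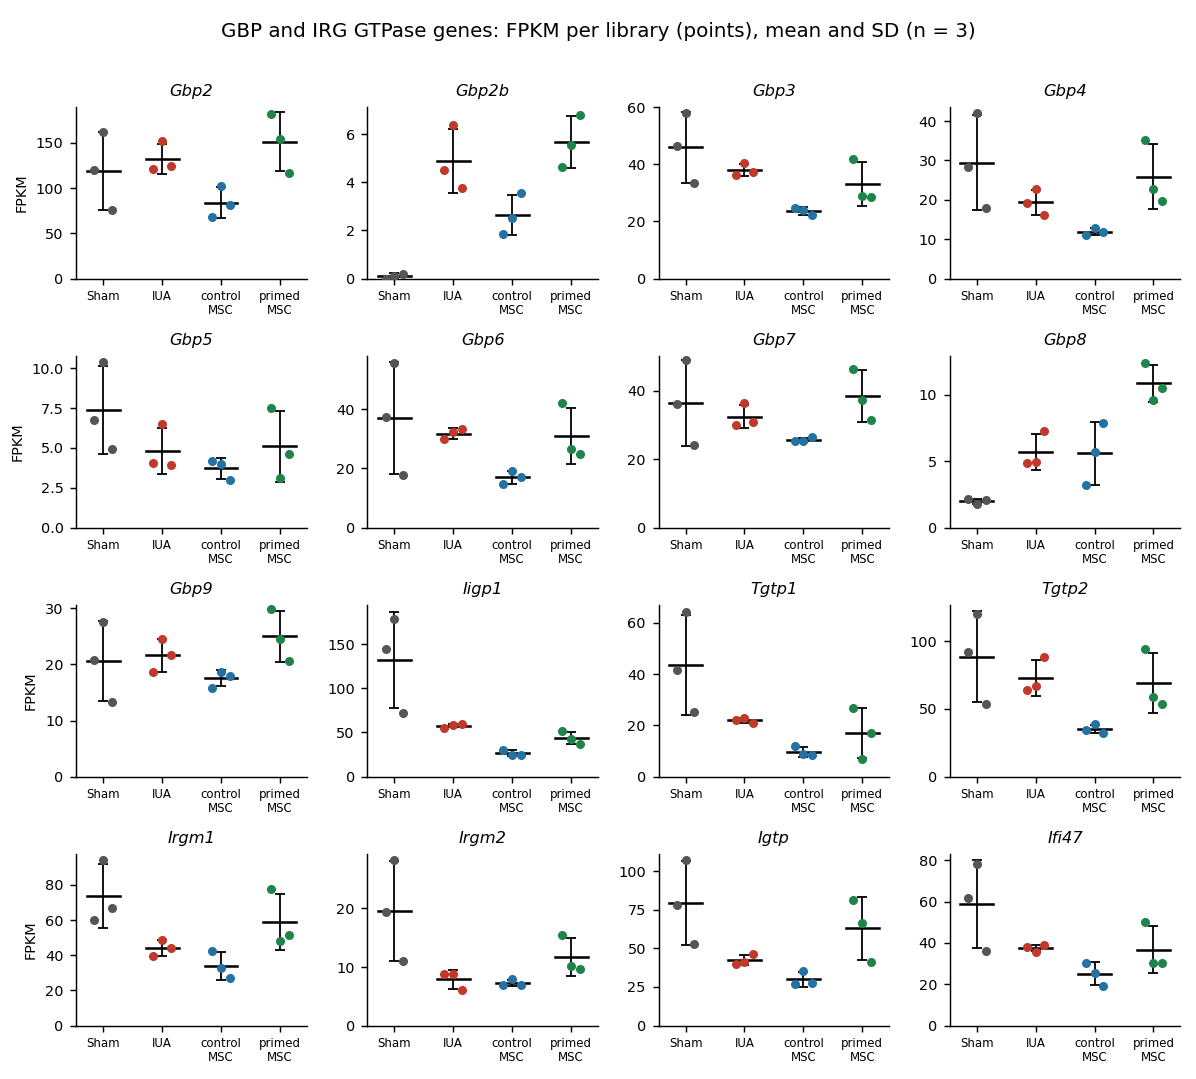
FPKM of the 9 GBP and 7 IRG genes (y axis of each panel, linear from 0) in the 4 groups (x axis). Points are libraries, and bars show the mean and SD (n = 3). The control MSC mean was the lowest of the 4 for all 7 IRG genes and for 7 of the 9 GBP genes, the exceptions being Gbp2b and Gbp8.

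IUA was first compared with Sham, which asks how the adhesion model differs from a sham operation. The members split. Gbp2b, Gbp8, Cxcl9, Il18bp, Gch1 and Serpina3g rose, and 9 others fell, among them 4 IRG genes and Wars. The 6 that rose were 6 of 30, where 11.1% of all genes rose, and the 9 that fell were 9 of 30, where 45% of all genes fell. The members' median log2 change was -0.29 against -0.35 over all tested genes. That downward shift of all genes depended on the scaling: after median-ratio scaling the median of all genes was -0.04, and the 16 GTPase genes then divided into 8 with positive and 8 with negative changes, instead of 4 and 12.

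Cxcl9, a chemokine that draws T cells through CXCR3, was at 1.13, 1.5 and 1.09 FPKM in Sham and at 9.71, 8.80 and 9.17 in IUA. The groups did not overlap, and the log2 change was 2.20 ± 0.20 (SE, n = 3 per group, adjusted p = 1.55e-05 by limma). Cxcl10, a ligand of the same receptor, moved the other way without passing: it was at 66.75, 48.51 and 42.33 FPKM in Sham and 28.46, 38.48 and 29.77 in IUA (log2 change -0.67 ± 0.29, adjusted p = 0.0608). Every IUA library was thus above Sham for one CXCR3 ligand and below it for the other.

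Among the GBP genes, which encode large GTPases that attack vacuole membranes, Gbp2b was at 0, 0.12 and 0.21 FPKM in Sham and at 4.51, 6.36 and 3.77 in IUA. This was close to none in Sham, and the log2 change was 2.39 ± 0.21 (adjusted p = 1.10e-05 by limma). Gbp8 was at 2.12, 1.74 and 2.06 FPKM in Sham and at 4.85, 4.93 and 7.26 in IUA (log2 change 1.15 ± 0.24, adjusted p = 0.00169). The other 7 GBP genes did not pass, with log2 changes from -0.51 (Gbp4) to 0.21 (Gbp2), and their Sham libraries spread widely. Gbp2, the most abundant member of the family, was at 120.24, 161.77 and 75.91 FPKM in Sham and at 121.35, 151.95 and 124.13 in IUA, with the IUA values inside the Sham range.

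All 7 IRG genes had negative changes, and 4 fell. Iigp1, an effector IRG that coats pathogen vacuoles, was at 144.92, 178.34 and 71.66 FPKM in Sham and at 55.28, 58.64 and 59.10 in IUA (log2 change -1.08 ± 0.26, adjusted p = 0.00394 by limma). Irgm2, a regulatory IRG that keeps effector IRGs inactive on the cell's own membranes, was at 19.45, 28.23 and 11.08 FPKM in Sham and at 8.82, 8.77 and 6.07 in IUA (log2 change -1.14 ± 0.28, adjusted p = 0.00434). The lowest Sham library was above each IUA library for both genes. The regulatory IRGs Igtp (-0.83 ± 0.26, adjusted p = 0.0172) and Irgm1 (-0.71 ± 0.22, adjusted p = 0.0145) also fell, but not after median-ratio, quantile or GC scaling or without Sham replicate 2. Under median-ratio scaling 1 of the 7 changes was positive.

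Serpina3g, an intracellular inhibitor of serine and cysteine proteases, was at 6.27, 3.96 and 3.97 FPKM in Sham and at 27.18, 25.27 and 18.30 in IUA (log2 change 2.11 ± 0.21, adjusted p = 2.46e-05 by limma). Il18bp, a secreted protein that binds and neutralises interleukin-18, was at 19.56, 18.31 and 24.36 FPKM in Sham and at 54.41, 50.68 and 63.22 in IUA (log2 change 1.4 ± 0.15, adjusted p = 5.56e-05). Neither gene had overlapping groups. Gch1, the first enzyme of tetrahydrobiopterin synthesis, rose by less, from 57.03, 43.90 and 54.99 to 76.73, 65.77 and 67.45 FPKM (log2 change 0.43 ± 0.11, adjusted p = 0.00564).

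Wars, the cytoplasmic tryptophanyl-tRNA synthetase, had the largest fall of the 30, from 43.74, 69.24 and 67.90 FPKM in Sham to 11.60, 22.78 and 14.26 in IUA (log2 change -1.86 ± 0.25, adjusted p = 1.58e-04 by limma). Parp9 and Dtx3l, partner proteins in a complex that ADP-ribosylates and ubiquitinates, both fell (-0.94 ± 0.22 and -0.72 ± 0.20, adjusted p = 0.00324 and 0.00841). The aminopeptidase gene Lap3 fell as well (-0.70 ± 0.21, adjusted p = 0.0127). Dtx3l and Lap3 missed the threshold after median-ratio, quantile or GC scaling. Fgl2, a membrane prothrombinase, was called lower at an adjusted p of 0.0493 with overlapping groups, and its change was 0.04 after median-ratio scaling. Socs1, the feedback inhibitor of Jak kinases, and Batf2, a transcription factor of activated macrophages, stayed at or under 3.13 FPKM in both groups and did not pass. Ubd, a ubiquitin-like modifier, was higher in each IUA library without passing (adjusted p = 0.0548).

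**Figure D2:**
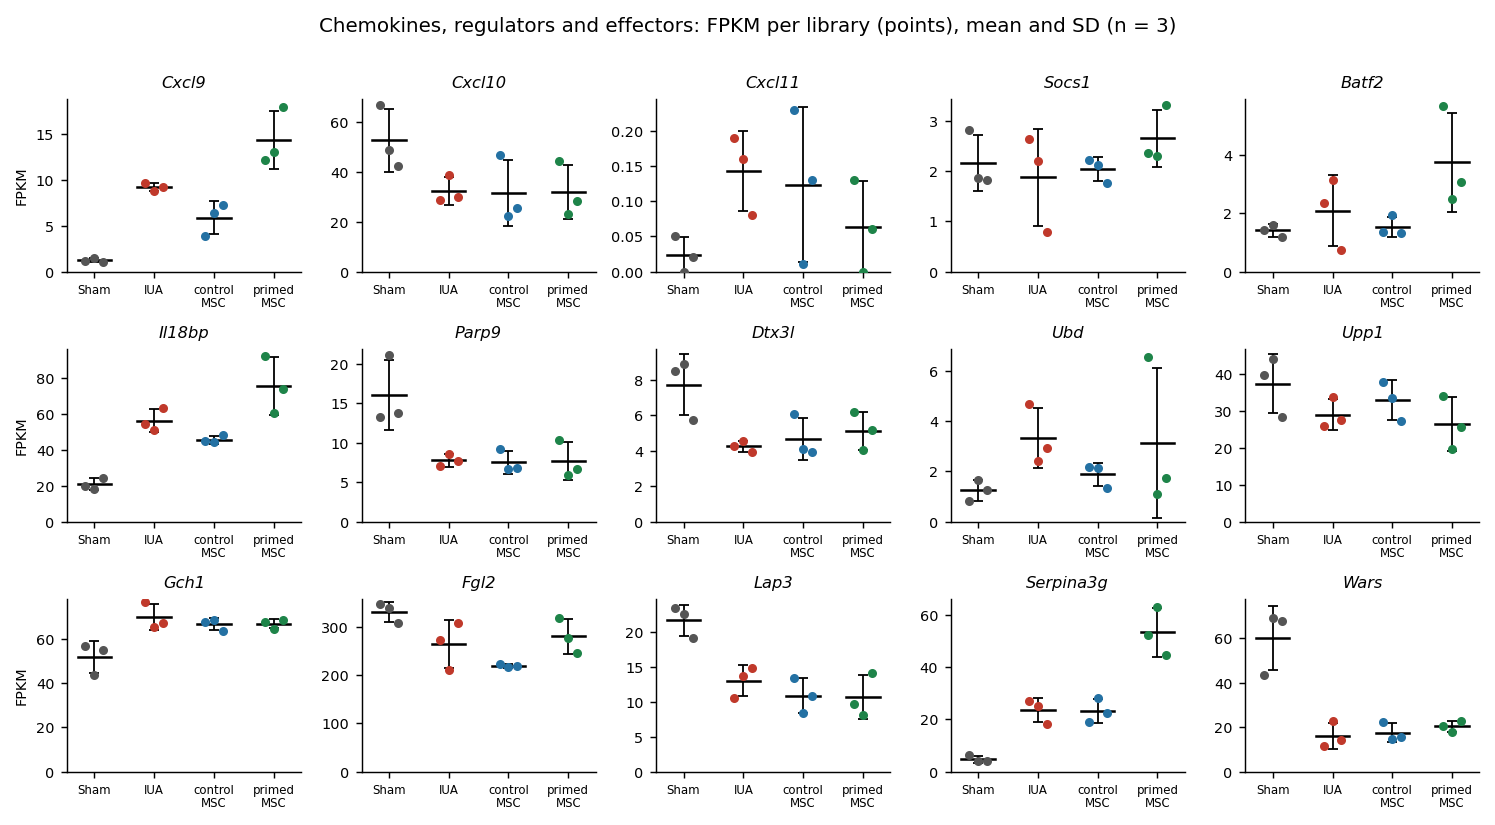
FPKM of the 15 chemokine, regulator and effector genes (y axis of each panel, linear from 0) in the 4 groups (x axis). Points are libraries, and bars show the mean and SD (n = 3). Serpina3g and Cxcl9 were lowest in Sham and highest in the primed MSC group, whereas Wars, Lap3 and Parp9 were highest in Sham.

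Other cell types moved with this contrast. Summed NK cell markers were at 56.25 to 98.28 FPKM in Sham and 32.40 to 47.25 in IUA, with 5 of the 9 tested markers lower, where 45% of all genes were, and none higher. Summed endothelial markers were at 285.0 to 507.2 FPKM in Sham and 140.8 to 186.0 in IUA, and summed neutrophil markers at 58.99 to 101.8 and 337.6 to 456.2. The neutrophil-defining gene Ly6g stayed at or under 0.69 FPKM in all 12 libraries. Of 14 T cell markers, 8 were under 1 FPKM everywhere. The part of these cells, and of the epithelial RNA, in the members' differences from Sham was not tested.

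Control MSC was then compared with IUA, which asks what control cells changed in the adhesion model. No member passed in either direction by limma, where 0.724% of all genes rose and 0.129% fell, and 10 of the 30 had an unadjusted p under 0.05. The share of all genes under that unadjusted p is not given here for any comparison. Counts of this kind thus have no background and are no result about the members or a list. Although no member passed, all 16 GTPase genes had negative log2 changes, with a median of -0.62, against 0.02 over all tested genes. In 12 of the 16, each control MSC library was below each IUA library. Over all members this held for 15 and the reverse for 0, where 7.33% of all genes were lower without overlap and 14.8% were higher. The sign was the same for all 16 under the TPM, median-ratio, quantile and GC scalings, and for 15 without IUA replicate 3 or without control MSC replicate 1. Sums of markers of other cell types differed between these groups too. Summed smooth muscle markers were at 285.5 to 368.8 FPKM in IUA and 104.4 to 206.4 in control MSC, and summed stromal markers at 286.3 to 913.6 and 143.7 to 264.4, with no overlap in either. All 10 smooth muscle markers had negative changes (median -0.98), and 7 of them had an unadjusted p under 0.05, but none of these 10 or of the 10 tested stromal markers passed by limma. Summed neutrophil markers were the other way round without overlap, at 337.6 to 456.2 FPKM in IUA and 687.8 to 1112 in control MSC. The single markers were divided, with 6 positive and 3 negative changes among the 9 tested. Only Camp passed, and it was lower (-1.50 ± 0.30, adjusted p = 0.0427 by limma). The part of these cells in the members' differences was not tested.

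Iigp1 came closest, with 30.06, 24.37 and 24.11 FPKM in control MSC against 55.28, 58.64 and 59.10 in IUA. Its log2 change of -1.12 ± 0.26 had an adjusted p of 0.0589 by limma, which was 0.0243 in a fit to these 2 groups alone and 0.0104 without Sham replicate 3. Tgtp2, an effector IRG, was at 34.25, 38.75 and 32.42 FPKM in control MSC and at 63.63, 66.87 and 88.17 in IUA (log2 change -1.02 ± 0.27, adjusted p = 0.0871). Tgtp1 and Tgtp2 summed, which sidesteps the division of reads between them, gave -1.06 ± 0.28 (adjusted p = 0.0856). Gbp3 was at 24.78, 23.94 and 22.29 FPKM in control MSC and at 36.36, 40.29 and 37.43 in IUA (log2 change -0.66 ± 0.19, adjusted p = 0.102). In each of these genes the groups stood apart in every library while the adjusted p missed the threshold.

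Outside the GTPases, Cxcl9 was at 3.83, 6.44 and 7.27 FPKM in control MSC, below each IUA library (log2 change -0.61 ± 0.20, adjusted p = 0.142 by limma). Serpina3g, at 19.14, 28.03 and 22.31 FPKM, overlapped with IUA (-0.02 ± 0.21). Wars, Parp9, Dtx3l, Gch1, Socs1 and Cxcl10 did so too, with changes between -0.10 and 0.14. Set against Sham, the control MSC group gave 6 higher members (14.1% of all genes rose) and 17 lower ones (42.7% fell). All 7 IRG genes were among the lower, also under each of the 4 other scalings, from -1.09 ± 0.22 for Irgm1 to -2.20 ± 0.26 for Iigp1 (adjusted p = 0.00114 and 5.08e-05).

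**Figure D3:**
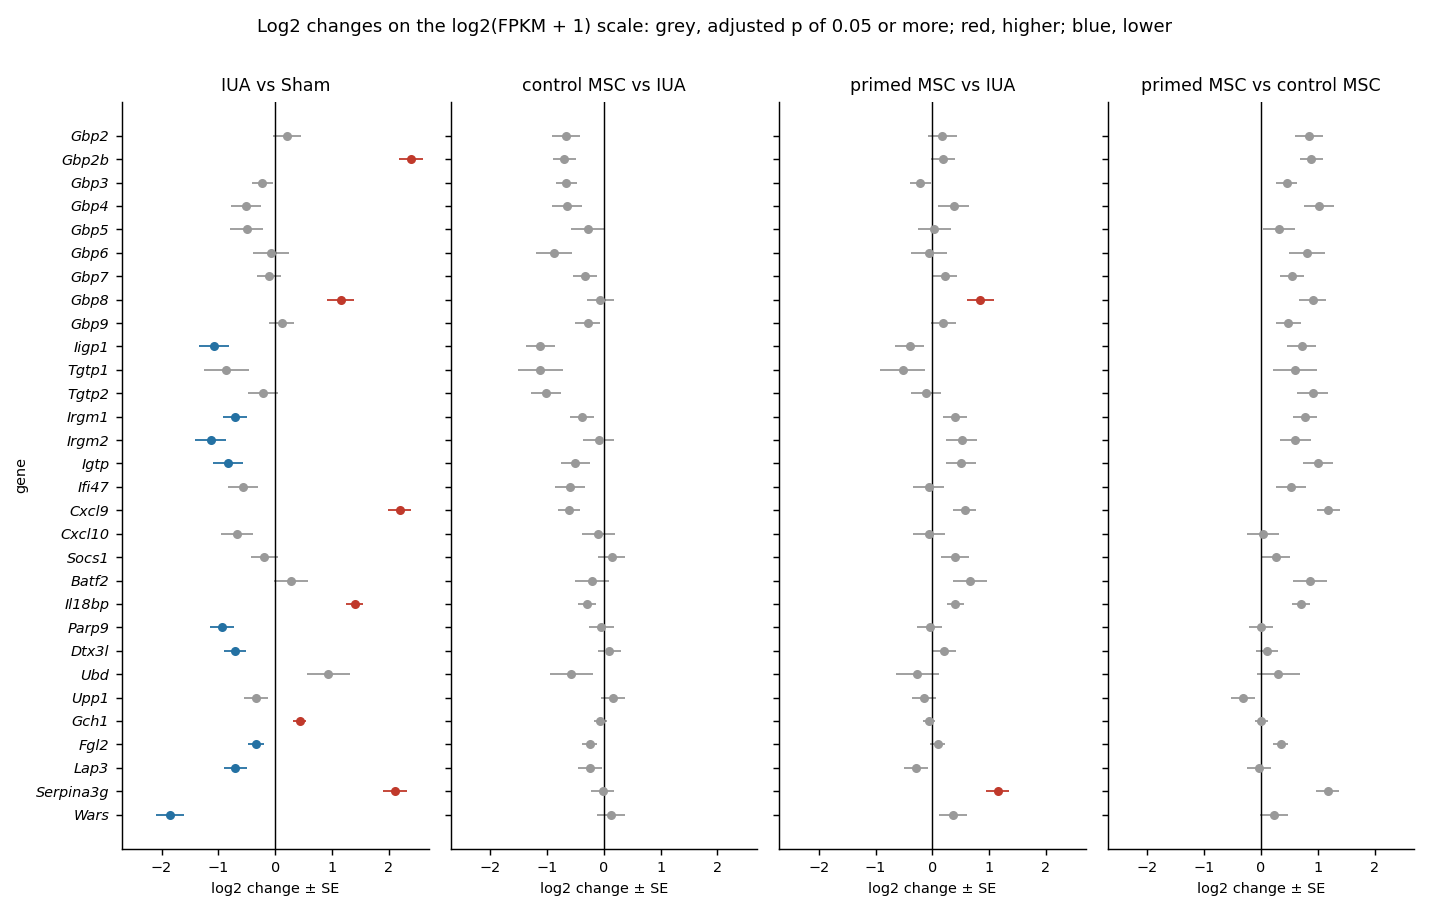
Log2 changes on the log2(FPKM + 1) scale (x axis, points, with SE bars) of the 30 tested members (y axis) in 4 comparisons. Grey points did not pass at an adjusted p under 0.05, red points were higher and blue points lower. All 16 GTPase genes are left of 0 in control MSC against IUA and right of 0 in primed MSC against control MSC, and none of them passed in either.

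Primed MSC was compared with control MSC, which sets mice given primed cells against mice given unprimed ones. No member passed by limma, where 0.0776% of all genes rose and 0.0345% fell. An unadjusted p under 0.05 was found for 18 of the 30, but the share of all genes under it is not given. All 16 GTPase genes had positive changes, with a median of 0.75 against -0.03 over all genes, under the fit as described and under each of the 4 other scalings. In 19 of the 30 tested members each primed MSC library was above each control MSC library, and in 0 below, where 12.3% of all genes were higher without overlap and 12.9% lower. Of the GTPase genes 13 of 16 were in that position. Summed genes of stress and tissue dissociation, a list of 16 immediate-early and heat-shock genes, also stood higher, at 4032 to 4293 FPKM in primed MSC against 3372 to 3967 in control MSC and 2756 to 3612 in IUA. In Sham they came to 4087 to 4503 FPKM. In IUA against Sham 1 of the 16 rose and 10 fell, where 11.1% and 45% of all genes did. Of the 16, 10 had positive and 6 had negative changes in primed MSC against control MSC. None passed by limma there, and 4 had an unadjusted p under 0.05. The part of this list in the members' differences was not tested. This comparison and the preceding one use the same 3 control MSC libraries, so the low levels in those libraries enter both.

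Cxcl9 was at 12.13, 13.04 and 18 FPKM in primed MSC, above each of the other 9 libraries. Against control MSC its log2 change was 1.19 ± 0.20, with an adjusted p of 0.0504 by limma. Serpina3g was at 52.28, 63.18 and 44.49 FPKM in primed MSC, again above the other 9 libraries (log2 change 1.17 ± 0.21, adjusted p = 0.0541). Both genes were on the edge of the threshold. Cxcl9 passed under TPM scaling (0.0489), median-ratio scaling (0.0404), GC correction (0.0283) and robust variances (0.0462). Serpina3g passed under the last pair of these (0.0495 and 0.0492) and in a fit to the 2 groups alone (0.0275). Without IUA replicate 3 both passed (0.0190 for Cxcl9 and 0.0157 for Serpina3g), and without Sham replicate 1 Serpina3g did (0.0445).

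Igtp was at 81.63, 66.12 and 40.92 FPKM in primed MSC and at 26.77, 35.42 and 27.63 in control MSC (log2 change 1.00 ± 0.26, adjusted p = 0.168 by limma). Gbp4 was at 35.16, 22.72 and 19.69 FPKM in primed MSC and at 11.03, 12.80 and 11.92 in control MSC (log2 change 1.02 ± 0.27, adjusted p = 0.178). For both genes the lowest primed library exceeded the highest control library. Gbp2b was at 4.64, 5.54 and 6.79 FPKM in primed MSC and at 1.86, 2.51 and 3.54 in control MSC (0.89 ± 0.21, adjusted p = 0.136). Il18bp was at 92.21, 60.41 and 73.47 FPKM in primed MSC and at 44.47, 43.92 and 47.83 in control MSC (0.70 ± 0.15, adjusted p = 0.110). Of the genes outside the GTPases that had fallen in IUA, Wars, Parp9, Dtx3l and Lap3 had changes between -0.04 and 0.23 with overlapping groups, and Fgl2 had one of 0.34 ± 0.14 without overlap (adjusted p = 0.325).

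**Figure D4:**
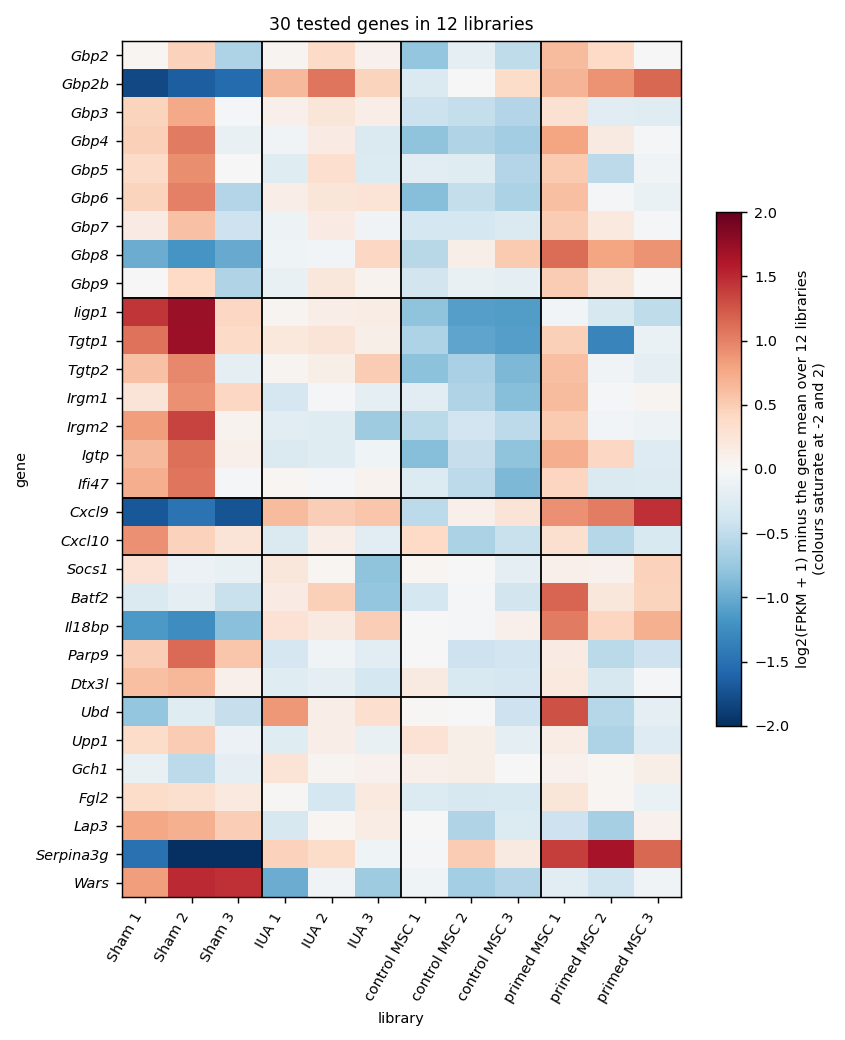
Log2(FPKM + 1) minus the gene's mean over the 12 libraries (colour, saturating at -2 and 2) for the 30 tested members (y axis) in the 12 libraries (x axis, 3 per group). Horizontal lines separate the roles. Sham replicate 2 and primed MSC replicate 1 are the reddest columns of their groups for most GTPase genes.

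Libraries of 1 group differed among themselves too. Within the primed MSC group replicate 1 had the highest value for 23 of the 30 tested members, and for 15 of the 16 GTPase genes (8 of 9 GBP and 7 of 7 IRG). Within Sham, replicate 2 was the highest for 21 members and replicate 3 the lowest for 21. The shares of all tested genes in these orders are not given. A shift of the whole library therefore cannot be told apart here from a trait of the members. After group means were removed, the median Pearson correlation over pairs of GTPase genes was 0.755 (120 pairs, 12 libraries), against 0.265 over all pairs of tested members. These points share libraries, some pairs share sequence, and correlations of genes outside the members are not given. Primed MSC replicate 1 also had the largest sum of neutrophil markers, 1405 FPKM, against 359.6 and 859.2 in the other primed libraries and 687.8 to 1112 in control MSC. Without it, all 16 GTPase changes against control MSC were still positive, with a median of 0.57, and the median of all members dropped from 0.57 to 0.38.

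Against IUA, the primed MSC group had 2 higher members and 0 lower ones, where 12.2% of all genes rose and 6.97% fell. Serpina3g rose (log2 change 1.15 ± 0.21, adjusted p = 0.00403 by limma), and so did Gbp8, which was at 12.41, 9.64 and 10.54 FPKM in primed MSC and at 4.85, 4.93 and 7.26 in IUA (0.84 ± 0.24, adjusted p = 0.0289). No primed library overlapped with IUA for either gene. The call of Gbp8 was lost without any 1 of the primed libraries, without IUA replicate 1 or 2, and with no filter on low values. The 16 GTPase genes divided into 10 positive and 6 negative changes (median 0.18), so the primed group did not lie to 1 side of IUA for them. Cxcl9 was above IUA in each primed library without passing (0.57 ± 0.20, adjusted p = 0.0645), though it passed after GC correction (0.0332) and without control MSC replicate 1 (0.0290). Irgm2 was also above IUA in each primed library (0.51 ± 0.28, adjusted p = 0.208). These were the 4 members above IUA without overlap, and 1 was below. That member was Iigp1, at 51.43, 42.42 and 37.35 FPKM in primed MSC and 55.28, 58.64 and 59.10 in IUA (-0.40 ± 0.26, adjusted p = 0.2885). The share of all genes without overlap is not given for this comparison.

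Against Sham, primed MSC had 7 higher members (14.5% of all genes rose) and 7 lower ones (45% fell). The higher ones were Gbp2b, Gbp8, Cxcl9, Batf2, Il18bp, Gch1 and Serpina3g, with Serpina3g at 3.25 ± 0.21 (adjusted p = 8.33e-07 by limma) and Cxcl9 at 2.77 ± 0.20 (adjusted p = 1.88e-06). The lower ones were Iigp1, Tgtp1, Cxcl10, Parp9, Dtx3l, Lap3 and Wars. Batf2 missed the threshold without Sham replicate 3 or primed MSC replicate 1, and Gch1 without Sham replicate 2. Cxcl10 and Dtx3l missed it after median-ratio, quantile or GC scaling, with no filter, and without Sham replicate 1 or 2 or primed MSC replicate 2 or 3, and Cxcl10 also without IUA replicate 3. Dtx3l missed it too in a fit to the compared groups alone (adjusted p = 0.0550 by limma). Tgtp1 was at 26.71, 7 and 17.19 FPKM in primed MSC while its near-copy Tgtp2 was at 94.12, 58.54 and 53.72, and the 2 genes summed did not pass (-0.59 ± 0.28, adjusted p = 0.0848). The other 5 IRG genes had negative changes between -0.32 and -0.64 that did not pass. Irgm2 and Ifi47 passed as lower under TPM scaling (adjusted p = 0.0499 and 0.0392 by limma), without Sham replicate 3 (0.00470 and 0.00577) and without primed MSC replicate 1 (0.0357 and 0.0183), and with the replicate block (0.0369 and 0.0302). Tgtp2 passed without Sham replicate 3 (0.0324). The number of lower members was 13 without Sham replicate 3 and 12 without primed MSC replicate 1, instead of 7. In the other direction, 3 of the 7 IRG changes were positive under median-ratio or GC scaling. Gbp2 and Gbp9 passed as higher under median-ratio scaling (adjusted p = 0.0242 and 0.0207 by limma), GC scaling (0.0233 and 0.0264) and without Sham replicate 2 (0.0432 and 0.0427). Under quantile scaling Gbp9, Socs1 and Ubd passed as higher (0.0357, 0.0228 and 0.0365) and Fgl2 as lower (0.0344).

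Genes of interferon-gamma signalling, not all of them upstream of the members, were examined next, in a list of 19 of which 17 were tested. Ifng itself was at or under 0.60 FPKM in all 12 libraries, with 0.42, 0.24 and 0.60 in Sham and 0.08, 0.08 and 0 in primed MSC. Transcripts of the cytokine were therefore near the lower end of the scale in these cells, highest in a Sham library.

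**Figure D5:**
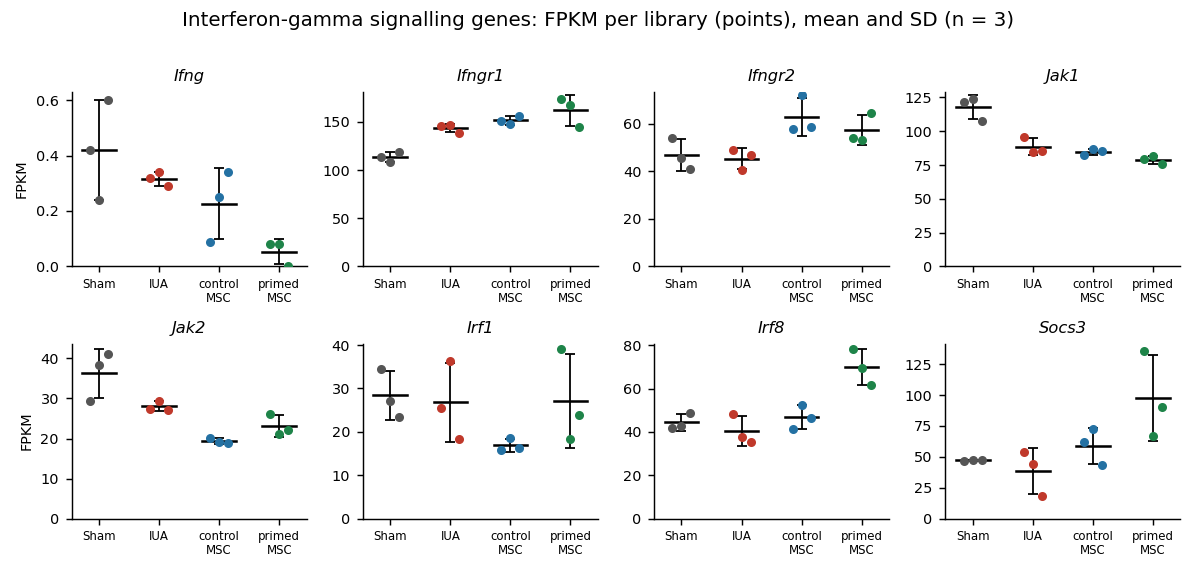
FPKM of 8 genes of interferon-gamma signalling (y axis of each panel, linear from 0) in the 4 groups (x axis). Points are libraries, and bars show the mean and SD (n = 3). The 3 primed MSC libraries have the highest Irf8 values, from 61.78 to 78.48, and Ifng does not exceed 0.60 in any library.

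Of these 17 genes, 3 rose and 6 fell in IUA against Sham, where 11.1% and 45% of all genes did. In primed MSC against IUA 5 rose and 0 fell (12.2% and 6.97% of all genes), and 1 rose in control MSC against IUA (0.724% of all genes). None passed by limma in primed MSC against control MSC, where 4 had an unadjusted p under 0.05 (share of all genes not given). The 5 higher in primed MSC against IUA were Stat3, Irf8, Nlrc5, Socs3 and Ptpn6. Irf8, a factor of myeloid cells that binds ISRE-like motifs with its partners, was at 78.48, 69.32 and 61.78 FPKM in primed MSC and at 48.23, 37.70 and 35.23 in IUA (0.78 ± 0.14, adjusted p = 0.00400 by limma). Socs3, an inhibitor of cytokine signalling, was at 135.70, 66.52 and 90.47 FPKM against 53.57, 43.81 and 18.20 (1.39 ± 0.35, adjusted p = 0.0175). Ptpn6, a phosphatase that dampens signalling in blood cells, rose in both treated groups against IUA, by 0.96 ± 0.14 in control MSC and 1.04 ± 0.14 in primed MSC (adjusted p = 0.0153 and 0.00116). Irf1, an early interferon-gamma target, was at 39.13, 18.33 and 23.86 FPKM in primed MSC and at 15.75, 18.47 and 16.33 in control MSC and did not pass (0.59 ± 0.27, adjusted p = 0.387).

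Of 42 tested further interferon-gamma targets outside the 31, 17 rose and 5 fell in IUA against Sham, with a median of 0.28, against 11.1% and 45% of all genes and an all-gene median of -0.35. Those that rose included Cybb, the catalytic subunit of the phagocyte oxidase (2.02 ± 0.13, adjusted p = 1.59e-06 by limma), Acod1, the itaconate-producing enzyme (3.32 ± 0.31, adjusted p = 1.96e-05), and Cd274, which encodes PD-L1 (1.65 ± 0.19, adjusted p = 8.25e-05). In primed MSC against IUA 8 rose and 3 fell, with a median of 0.09, where 12.2% and 6.97% of all genes did and the all-gene median was -0.03. Tap1, a subunit of the peptide transporter for MHC class I, was among the higher ones, at 63.21, 42.10 and 40.79 FPKM against 24.16, 24.20 and 12.73 (1.24 ± 0.25, adjusted p = 0.00699). By limma none of the 42 passed in control MSC against IUA or in primed MSC against control MSC. There 11 and 12 had an unadjusted p under 0.05 (shares of all genes not given). Of 25 tested type I interferon response genes 4 rose and 12 fell in IUA against Sham (median -0.55), so the share that fell was close to the 45% of all genes that did. Usp18, which fell, is counted both in this list and in the signalling list. Among the lower ones was Ddx58, the cytosolic RNA sensor RIG-I, at 8.81, 11.61 and 7.98 FPKM in Sham and 4.47, 5.16 and 5.82 in IUA (-0.76 ± 0.16, adjusted p = 0.00199). In primed MSC against IUA only Oas3 and Irf7 of the type I list passed, both higher. None did in primed MSC against control MSC, where 5 had an unadjusted p under 0.05 (share of all genes not given).

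Summed NK cell markers were at 10.05 to 58.19 FPKM in control MSC and 19.07 to 19.99 in primed MSC, and none of the 9 tested NK markers passed by limma between them or between either and IUA. An unadjusted p under 0.05 was found for 3, in primed MSC against IUA, but the share of all genes under it is not given. That count is therefore no result about NK markers. Ncr1 and Klrb1c, which define NK cells, were at or under 1.21 FPKM in all 12 libraries. Summed smooth muscle markers were at 154.8 to 260.3 FPKM in primed MSC, overlapping with control MSC and below IUA, and 9 of the 10 had positive changes against control MSC (median 0.49), none of which passed by limma and 1 of which had an unadjusted p under 0.05. Summed stromal markers, at 113.7 to 239.8 FPKM in primed MSC, likewise overlapped with control MSC. The contractile genes that define smooth muscle were present, with Myh11 at 4.70 to 22.71 FPKM in the 9 libraries of the adhesion groups. Whether the content of NK cells, neutrophils, smooth muscle or stroma bears on the differences among the adhesion groups was not tested.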

How the data were processed

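The authors deposited 1 table of FPKM values with 2 decimals for 22294 genes in 12 libraries, made from poly(A) RNA per the labels' protocols. The authors' tools, per the submitters' processing notes, were fastp, HISAT2, StringTie, RSEM and DESeq2, with mm10 as build. Their versions and roles are not given in the sources used here. No counts were used, so depth and counting error are unknown.

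Libraries were grouped by their labels. limma 3.58.1 in R 4.3.3 was fitted to log2(FPKM + 1) with 1 mean per group, trended variances and no replicate block, for genes reaching an FPKM of 1 in 3 or more libraries. Tests were two-sided, with Benjamini-Hochberg adjustment over all 11604 genes and a threshold of 0.05, in 6 comparisons. Nothing says that replicates came from separate animals, so the spread behind the p-values may be technical. An exact permutation test of 3 against 3 cannot go below 0.1. The fit was tested on simulated data.

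The members and gene lists were chosen with earlier results of these data known, and support nothing by their direction. All members could be named. Those that passed with the largest changes, or had the smallest p where fewer than 3 passed, are given per library. Some further members are given per library outside that rule. Promoter windows come from RefSeq GRCm38.p6, and gene models and transcripts from GENCODE M21. Alternatives were other pseudocounts, filters, scalings, a GC correction, robust variances, the compared groups alone, a replicate block, Tgtp1 and Tgtp2 summed, and leaving out each library. Of the signalling list, 1 gene is not reported here.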

Additional observations from a re-analysis of the deposited data

How the results depend on the processing

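The counts of members past the threshold were within 1.5 times those reported under the alternatives tried, apart from the following, whose cause was not tested. In IUA against Sham, 4 members instead of 9 fell after median-ratio scaling, 5 after quantile normalization and 4 after GC correction, and the call of Fgl2 as lower turned to a log2 change of 0.038 after median-ratio scaling (adjusted p = 0.859 by limma). All-gene calls in that comparison went from 1291 higher and 5226 lower to 2532 and 2716 after median-ratio scaling. In control MSC against IUA, 1 member (Iigp1) fell in the compared groups alone. In primed MSC against IUA, 1 member rather than 2 rose with no filter on low values. In primed MSC against control MSC, 1 member rose under TPM scaling, 1 under median-ratio scaling, 2 after GC correction, 2 with robust variances and 1 in the compared groups alone. In primed MSC against Sham, 11 members instead of 7 fell under TPM scaling. Leaving out each library in turn gave, in IUA against Sham, 6 to 7 higher and 6 to 12 lower members, in control MSC against IUA 0 to 0 higher and 0 to 1 lower, in primed MSC against IUA 1 to 3 higher and 0 to 0 lower, and in primed MSC against control MSC 0 to 3 higher and 0 to 0 lower. The highest of the last of these, 3 (Cxcl9, Serpina3g and Il18bp), came without IUA replicate 3, when calls over all genes went from 9 higher and 4 lower to 183 and 50. The same procedure gave 5 to 6 higher and 13 to 19 lower members in control MSC against Sham, and 6 to 8 higher and 5 to 13 lower in primed MSC against Sham, with 13 lower without Sham replicate 3 and 12 without primed MSC replicate 1. Between 19 and 23 members differed across the 4 groups. Replicate numbers are shared by the groups, and nothing in the labels says that they pair the libraries. Deviations of same-numbered libraries from their group means correlated with r between -0.293 and 0.288 over genes. With groups of 3 these values cannot decide whether libraries were paired. With the replicate block, 7 members were higher and 9 lower in IUA against Sham, 7 and 10 in primed MSC against Sham, and 23 differed across the groups. The other counts of members were as without the block, while calls over all genes in primed MSC against control MSC went from 9 higher and 4 lower to 0 and 0. Groups of 3, values with no counts behind them, near-identical gene copies and the epithelial RNA in Sham limit these comparisons.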
